A study of Homo sapiens with 2 samples.

Results

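The Wnt and beta-catenin target genes described here were AXIN2, LGR5, NKD1, ASCL2, RNF43, TCF7, LEF1, DKK1 and SP5, together with CTNNB1, the gene of beta-catenin itself. Every gene probe of the array that carried one of these names was taken, whatever its values, which gave 10 of 25940 gene names and 13 probes. CTNNB1, TCF7 and AXIN2 had 2 probes each and the other 7 genes had 1. The study asked what changes when SET7/9, a lysine methyltransferase encoded by SETD7, is knocked down in gastric cancer (GC) cells. MKN74 and MKN45, both established GC cell lines grown in RPMI1640 with 10% FBS, were electroporated with 50 nM SET7/9 siRNA or 50 nM negative control siRNA, and RNA was taken after 48 hrs. For each line, 1 two-colour Agilent array compared knockdown RNA in Cy5 with control RNA in Cy3, without a dye swap. The study used a pair of SET7/9 siRNAs, and which of them was hybridised is not given in the sources used here.

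In canonical Wnt signalling, a Wnt ligand binds a Frizzled receptor and an LRP co-receptor, the complex that marks beta-catenin for destruction is held off, and beta-catenin enters the nucleus, where it binds TCF and LEF factors on the DNA. Many of the genes switched on in this way are themselves brakes of the pathway, among them AXIN2, NKD1, RNF43 and DKK1. In the gut, LGR5 and ASCL2 mark stem cells that depend on Wnt, and LGR5 also marks a stem cell population at the base of gastric glands.

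TCF and LEF factors bind short sites that contain CTTTG followed by A or T at the next positions. RefSeq promoter windows (GRCh38.p14, the 250 bases before the transcription start) were available for 6 of the 10 genes, 8 windows in all; AXIN2, LGR5, NKD1 and ASCL2 were not among them. They were searched on both strands for the 4 motifs that follow CTTTG with AA, AT, TA or TT, which cannot overlap each other on the same strand. At least 1 match lay in 3 of the 8 windows, against 11.96% of all 35116 promoter windows of this length. The SP5 and DKK1 windows are shown because they held the most matches, and the CTNNB1 window because it held none. The LEF1 and RNF43 windows also held none, and no relation between matches and expression was tested. Capitals mark the matches, which on the minus strand read as the reverse complement. All 3 windows are on the plus strand, written 5′ to 3′, and lie at chr2:170715087-170715336 (SP5), chr10:52314031-52314280 (DKK1) and chr3:41199255-41199504 (CTNNB1).
SP5 promoter: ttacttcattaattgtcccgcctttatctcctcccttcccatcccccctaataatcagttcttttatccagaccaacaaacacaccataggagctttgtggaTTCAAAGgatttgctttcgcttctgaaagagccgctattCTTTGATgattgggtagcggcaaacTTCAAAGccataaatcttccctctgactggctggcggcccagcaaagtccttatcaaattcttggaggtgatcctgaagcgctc
DKK1 promoter: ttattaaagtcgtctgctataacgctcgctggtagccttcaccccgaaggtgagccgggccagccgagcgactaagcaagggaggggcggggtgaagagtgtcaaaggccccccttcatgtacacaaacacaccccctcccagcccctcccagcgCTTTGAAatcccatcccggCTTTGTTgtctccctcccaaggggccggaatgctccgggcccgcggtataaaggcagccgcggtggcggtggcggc
CTNNB1 promoter: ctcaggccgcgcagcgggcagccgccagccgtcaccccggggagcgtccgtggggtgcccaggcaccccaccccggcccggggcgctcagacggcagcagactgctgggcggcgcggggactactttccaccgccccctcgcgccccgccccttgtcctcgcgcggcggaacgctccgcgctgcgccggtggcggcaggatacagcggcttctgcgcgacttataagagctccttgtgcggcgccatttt

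SP5 held 3 matches, a number reached by 0.1225% of all windows, with the most distal one starting 148 bases before the start of transcription. DKK1 held 2, a number reached by 1.207% of windows, at 95 and 76 bases before the start. One of the TCF7 windows held 1 match and the other none, and no match was found in the windows of CTNNB1, LEF1 and RNF43. The windows also differ in base composition, with a GC content of 45.6% in SP5, 62.8% in DKK1 and 74.4% in CTNNB1 beside a median of 58% over all windows. A match describes the letters and not a bound site, and binding was not measured here.

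Across each array, the brighter SETD7 probe gave a log2 ratio of -2.03 in MKN74 and -1.95 in MKN45, while a second SETD7 probe gave 0.24 and -0.23. All 8 epithelial marker genes were well above background in every channel, with a summed processed signal of 318913 to 373856. Of 13 markers of leukocytes, endothelium, fibroblasts and muscle, 3 to 8 were above background depending on the channel, with a summed signal of 406 to 468. Among the defining ones, COL1A1, DES and CDH5 were well above background in all 4 RNA samples, with signals of 47.4 to 183.4, 143.8 to 258.9 and 25.2 to 35.6, while COL1A2, DCN and PDGFRB were above it in none; their part in the results was not tested. A log2 ratio below is always Cy5 over Cy3, so that a negative value means less RNA with SET7/9 siRNA. Its error is the scanner software's own estimate for the spot, never an SD over replicates. At the CTNNB1 probe with 10 spots this error was 0.20 in both lines, beside SDs over spots of 0.033 and 0.023. How often intervals from such errors hold the true value was not tested. With 1 array per cell line no p-value can be given for either line, and the number of arrays limits the precision. Less RNA per cell cannot be told apart from fewer cells that hold it. Of all probes, 363 were at least 1.5-fold lower and 781 higher in MKN74 and 449 lower and 1097 higher in MKN45; normexp background correction with loess left 43 and 43 in MKN74 and 18 and 27 in MKN45.

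With SET7/9 knockdown, few of the Wnt genes lay past the 1.5-fold that the study used as its cutoff. In MKN74, where 8 of the 10 genes were measured, 1 gene (ASCL2) was at least 1.5-fold lower and 0 were higher, when 1.75% of all genes on this array were that much lower and 3.73% that much higher. In MKN45, where all 10 were measured, 0 genes were lower and 1 (DKK1) was higher, against 1.89% lower and 4.63% higher of all genes. Every measured Wnt gene had both channels well above background, and among all genes of that kind 1.43% were lower and 0.684% higher in MKN74, and 1.48% lower and 0.827% higher in MKN45. The median log2 ratio of the Wnt genes was -0.13 in MKN74 and -0.03 in MKN45, beside 0.0045 and 0.015 over all genes. Below 0 lay 8 of 11 measured probes in MKN74 and 10 of 13 in MKN45. Counted by gene, these were 6 of 8 in MKN74, beside 7836 of 15989 of all genes. In MKN45 they were 7 of 10, beside 8201 of 17544 of all genes. Where a gene had 2 probes, their log2 ratios differed by less than 1.96 combined spot errors in 6 of 6 pairs. That limit is wide, with combined errors of 0.29 to 0.35, and the AXIN2 probes lay 0.40 apart in each line.

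**Figure D1:**
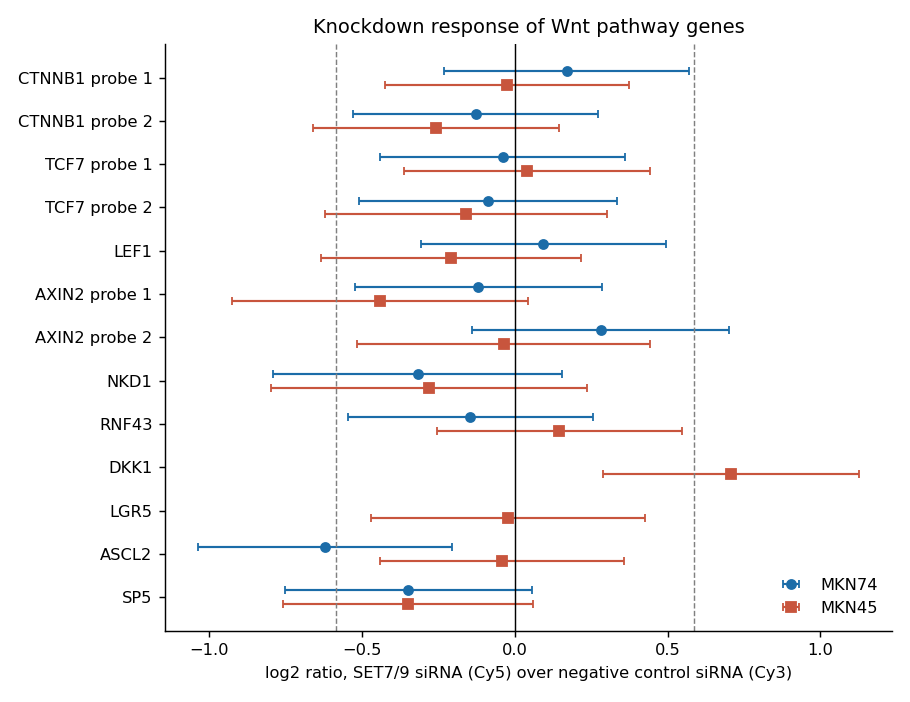
Log2 ratio of SET7/9 siRNA over negative control siRNA (x axis) for each probe of the Wnt genes (y axis) in MKN74 (circles) and MKN45 (squares). Bars are 1.96 spot errors of the scanner software, dashed lines mark 1.5-fold, and only ASCL2 in MKN74 (-0.62) and DKK1 in MKN45 (0.71) lie outside them. DKK1 and LGR5 have no value in MKN74.

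CTNNB1 encodes beta-catenin, the protein that carries the signal to the nucleus and that also links E-cadherin to the cytoskeleton. Its brighter probe (chr3:41281749-41281808 of GRCh37, the build of all probe positions) was printed on 10 spots and gave a processed signal of 4897 in control and 5509 in knockdown cells of MKN74, and of 3375 and 3316 in MKN45. The knockdown samples lay close to the controls in both lines: in MKN74 the log2 ratio was 0.17 (error 0.20) and in MKN45 -0.03 (error 0.20), with an SD over the 10 spots of 0.033 and 0.023. The second probe, 1002 bases closer to the 5′ end (chr3:41280687-41280746), gave 807 and 738 in MKN74 and 552 and 462 in MKN45. Its log2 ratios were -0.13 (error 0.20) and -0.26 (error 0.21). The knockdown signal was thus above the control at the first probe in MKN74 and below it in the other 3 measurements, always by less than 1.5-fold.

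The factors TCF7 and LEF1 bind DNA and take up beta-catenin, and both genes are also targets of the pathway. The brighter TCF7 probe (chr5:133483237-133483296, 10 spots) read 381 in control and 371 in knockdown cells of MKN74 and 215 and 221 in MKN45. In MKN74 this was a log2 ratio of -0.04 and in MKN45 one of 0.04, with an SD over spots of 0.075 and 0.076. The dimmer TCF7 probe (chr5:133478508-133478567), with log2 ratios of -0.09 and -0.16, also stayed within its error of 0 in both lines. LEF1 (chr4:108968746-108968805, minus strand) read 1497 and 1597 in MKN74 but 109.5 and 94.7 in MKN45. In MKN74 this was a log2 ratio of 0.09 (error 0.20) and in MKN45 one of -0.21 (error 0.22). For LEF1 the samples thus separated by cell line and not by siRNA.

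AXIN2 is a scaffold of the destruction complex and one of the most widely used readouts of Wnt signalling. The 2 AXIN2 probes lie 28939 bases apart on the minus strand of chromosome 17, and the upstream one is shown because the probes differ in sign in MKN74, written 5′ to 3′ with no part in capitals.
AXIN2 probe (chr17:63554388-63554447, minus strand, GRCh37): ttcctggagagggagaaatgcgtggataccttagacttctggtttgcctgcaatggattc

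The downstream AXIN2 probe (chr17:63525389-63525448), the brighter of the pair, read 236.5 in control and 217.7 in knockdown cells of MKN74 and 53.2 and 39.2 in MKN45. The log2 ratios were -0.12 (error 0.21) and -0.44 (error 0.25). The probe printed above read 99.9 and 121.3 in MKN74 and 44.9 and 43.8 in MKN45, a log2 ratio of 0.28 (error 0.21) and -0.04 (error 0.24). The downstream probe was lower than the upstream one by 0.40 in MKN74 and by 0.40 in MKN45 on the log2 scale, with combined errors of 0.30 and 0.35. Neither probe passed 1.5-fold in either line. After normexp and loess, the downstream probe was at -0.14 in MKN74 and -0.18 in MKN45, and the upstream one at 0.27 and 0.05.

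NKD1 binds Dishevelled and dampens the signal from the receptor. It was dim in every sample (chr16:50667885-50667944), with 65.6 in control and 52.6 in knockdown cells of MKN74 and 45.9 and 37.8 in MKN45. The log2 ratios were -0.32 (error 0.24) and -0.28 (error 0.26), so that knockdown lay below control in both lines by little more than 1 error. After normexp and loess these values were -0.04 and 0.05.

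RNF43 is a membrane ubiquitin ligase that removes Frizzled receptors from the cell surface and is often mutated in gastric cancer. It was bright (chr17:56431063-56431122, minus strand), with 7684 in control and 6946 in knockdown cells of MKN74 and 4471 and 4947 in MKN45. In MKN74 the log2 ratio was -0.15 (error 0.20) and in MKN45 it was 0.15 (error 0.20). The lines differed in sign, and the difference of 0.29 equalled its combined error of 0.29.

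DKK1 is a secreted antagonist that binds the LRP co-receptors. In MKN74 it was not well above background in either channel (chr10:54076687-54076746), with a processed signal of 4.0 in control and 2.65 in knockdown cells, and no ratio was formed. In MKN45 the control cells read 1820 and the knockdown cells 2973. The log2 ratio in MKN45 was 0.71 (error 0.21; 95% interval from that error, 0.29 to 1.13), 1.63-fold higher with SET7/9 siRNA. It was the one Wnt gene past 1.5-fold in this line, and stayed past it after normexp and loess (0.61). No second DKK1 probe and no second array were there to check it.

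LGR5, a receptor for R-spondins, was likewise not well above background in MKN74 (chr12:71978325-71978384), with 3.41 and 2.23. In MKN45 it was dim but measured, with 55.9 in control and 55.0 in knockdown cells and a log2 ratio of -0.02 (error 0.23). ASCL2, a transcription factor of intestinal stem cells (chr11:2289959-2290018, minus strand), read 583 in control and 379 in knockdown cells of MKN74 and 2746 and 2667 in MKN45. Its log2 ratio in MKN74 was -0.62 (error 0.21; interval -1.04 to -0.20), 1.54-fold lower with knockdown and just past the cutoff. In MKN45 it was -0.04 (error 0.20). After normexp and loess ASCL2 was at -0.42 in MKN74, no longer past 1.5-fold, and at 0.02 in MKN45.

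SP5 is a zinc finger factor switched on directly by beta-catenin in many cell types. Its probe (chr2:171574290-171574349) read 1021 in control and 802 in knockdown cells of MKN74 and 216 and 170 in MKN45. The log2 ratios were -0.35 (error 0.21) and -0.35 (error 0.21). Knockdown was below control by the same amount in both lines, short of 1.5-fold in each, and the values after normexp and loess were -0.38 and -0.29.

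**Figure D2:**
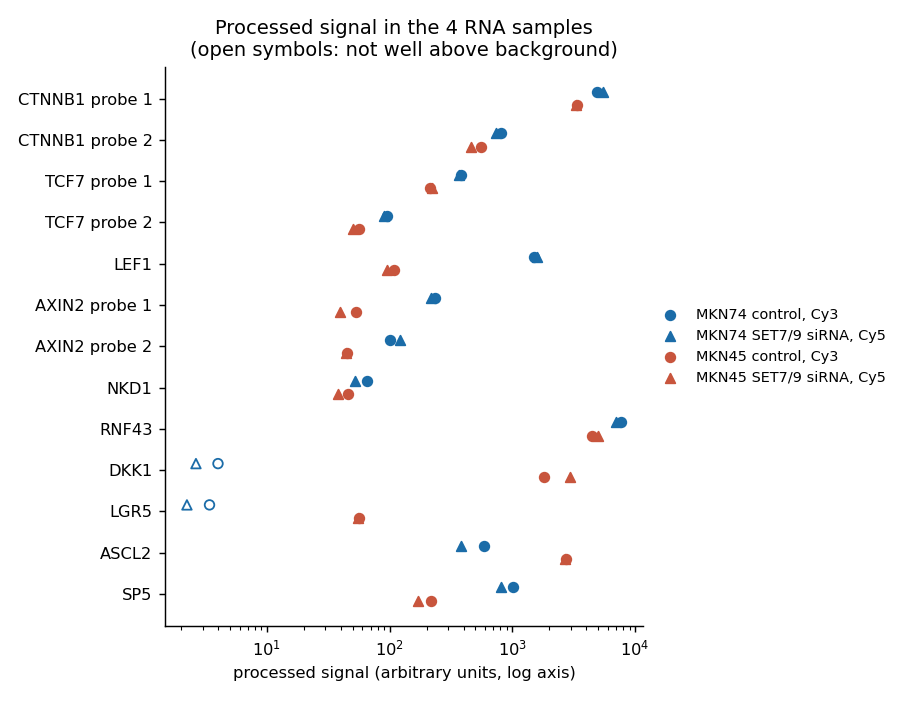
Processed signal (x axis, arbitrary units, log axis) of each probe of the Wnt genes (y axis) in the 4 RNA samples, with Cy3 control cells as circles and Cy5 knockdown cells as triangles. Levels can be compared within a row and not between rows. The cell lines lie further apart than the siRNAs for LEF1 (1497 against 109.5 in control cells), SP5, AXIN2, ASCL2, DKK1 and LGR5. At smaller distances the same holds for TCF7, RNF43, CTNNB1 and NKD1. The signals shown are not scaled between the arrays. Scaled to the 75th percentile, NKD1 differed by -0.33 on the log2 scale between control cells, about its knockdown log2 ratio of -0.32 in MKN74.

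A direct comparison of the responses, MKN45 minus MKN74, was possible for 11 probes. It exceeded 1.96 combined spot errors for 1 of them, ASCL2, against 1.48% of all probes measured in both channels on both arrays. The ASCL2 difference was 0.58 with a combined error of 0.29 and an interval of 0.0015 to 1.16, and centring each array on its median left no probe of the Wnt genes past that limit. For AXIN2 the difference was -0.32 at each probe with combined errors of 0.32 and 0.33, for LEF1 -0.30 (error 0.30) and for SP5 -0.00076 (error 0.29). Over all 17362 probes measured in this way, the 2 arrays correlated with a Pearson r of 0.393, a description across probes that are not independent replicates.

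The only fit with residual spread takes the 2 arrays as replicates of the knockdown, with 1 residual degree of freedom. In limma with Benjamini-Hochberg adjustment, 0 of 19595 probes were called (0%), while 2569 had an unadjusted p under 0.05. Not even the brighter SETD7 probe, at -2.03 in MKN74 and -1.95 in MKN45, was called. A gene that this fit does not call may therefore still have responded. The largest common response among the Wnt genes was that of SP5, with a log2 ratio of -0.35 (SE 0.067, below 0 on both arrays) and an adjusted p of 0.36. ASCL2 followed with -0.33 (SE 0.17, limma adjusted p 0.45) and NKD1 with -0.30 (SE 0.068, limma adjusted p 0.37). The wider error of ASCL2 came from the distance between its 2 arrays. After normexp and loess, with which limma called 553 probes lower and 1155 higher, SP5 had an adjusted p of 0.012 at a log2 ratio of -0.33, and the adjusted p of the other Wnt probes ran from 0.11 to 0.94.

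**Figure D3:**
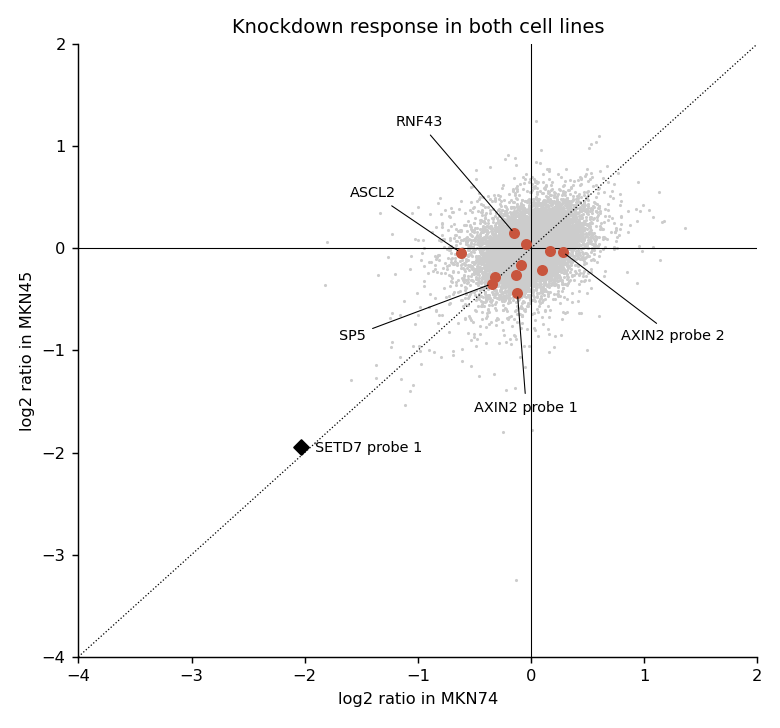
Log2 ratio with SET7/9 knockdown in MKN74 (x axis) and MKN45 (y axis) for the 11 probes of the Wnt genes measured in both lines (red), the first SETD7 probe (black diamond) and every other probe measured in both channels on both arrays (grey). The dotted line marks equal responses; SP5 (-0.35 and -0.35) lies on it, and ASCL2 (-0.62 and -0.04) is the Wnt gene furthest from it.

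The Wnt genes differed more between the cell lines than between the siRNAs. Their median difference, regardless of sign, was 1.31 on the log2 scale between the control cells and 0.16 and 0.18 with knockdown in MKN74 and MKN45. The same held over all genes, with 0.679 between the control cells and 0.117 and 0.119 with knockdown. Control cells were compared in Cy3 relative to the 75th percentile of each array. There, 7 of 8 Wnt genes measured on both arrays were lower in MKN45 than in MKN74. Of all 13637 genes, 6942 were higher in MKN45. The median log2 difference was -0.62 for the Wnt genes beside 0.020 over all genes. At the brightest probe of each gene, 1 gene was at least 2-fold higher in MKN45 (16.6% of all genes) and 3 were at least 2-fold higher in MKN74 (17.8% of all genes). The 3 were LEF1, SP5 and AXIN2, and the 1 was ASCL2. No replicate array shows how far 2 cultures of 1 line would differ.

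LEF1 had the widest of the measured differences, 12.0-fold higher in MKN74 (log2 difference -3.59). SP5 was 4.16-fold higher in MKN74 (-2.06). AXIN2 was 3.91-fold higher in MKN74 at the downstream probe (-1.97) and 1.96-fold at the upstream one (-0.97). The opposite held for ASCL2, which was 5.35-fold higher in MKN45 (2.42).

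The remaining genes differed less. TCF7 was 1.56-fold higher in MKN74 (-0.64) at the brighter probe and RNF43 1.51-fold (-0.60). CTNNB1 was 1.28-fold higher in MKN74 (-0.35), with -0.36 at its second probe, and NKD1 was at -0.33. Across scalings every one of these 11 probes kept its sign. Aquantile, which moved the median over all probes from 0.027 to -0.13, gave -3.73 for LEF1, -2.38 for the downstream AXIN2 probe and 2.52 for ASCL2, while normexp with quantile normalization gave -2.70, -1.14 and 2.32. In the knockdown channel, Cy5, the same differences were -3.90, -2.30 and 2.99.

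DKK1 and LGR5 could be compared between the lines only as bounds, in which, after Aquantile scaling, MKN74 was set to the dimmest signal that still counted as well above background there, or to the probe's own value if that was higher. DKK1 was at least 92.9-fold higher in MKN45 in control cells and at least 262-fold in knockdown cells. For LGR5 the bounds were at least 2.19-fold and at least 3.71-fold. Such bounds compare channels of different arrays with no dye swap. Of the 10 genes, ASCL2, DKK1 and LGR5 were thus higher in MKN45 by these values and the other 7 higher in MKN74.

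**Figure D4:**
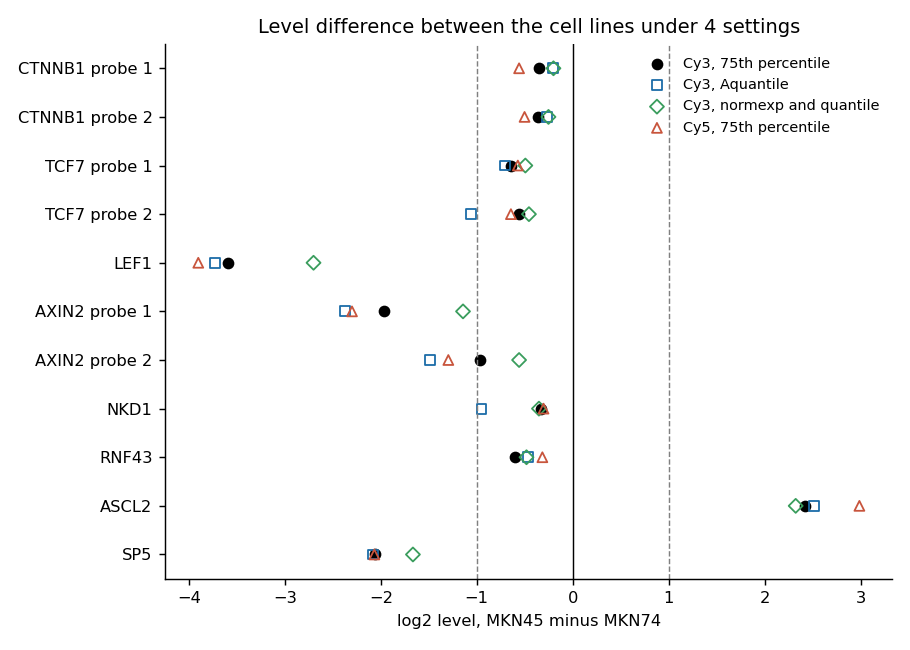
Difference in log2 level between the cell lines, MKN45 minus MKN74 (x axis), for the 11 probes of the Wnt genes measured on both arrays (y axis), in control cells (Cy3) under 3 scalings and in knockdown cells (Cy5). Dashed lines mark 2-fold; LEF1 lies furthest to the left (-3.59) and ASCL2 is the one gene to the right of 0 (2.42) under each setting.

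The rest of the pathway was described with lists of 133 further gene names, of which 131 were on the array. In MKN74, 95 of these genes were measured, 3 at least 1.5-fold lower and 2 higher with knockdown, beside the 1.75% and 3.73% of all genes given above, with a median log2 ratio of -0.02. In MKN45, 102 were measured, 4 lower and 5 higher, beside 1.89% and 4.63% of all genes, with a median of 0.02. Every one of the higher genes rested on 1 channel alone, as did AXIN1 among the lower ones, which leaves 3 lower genes in each line with both channels well above background.

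None of these genes was among the 3 in both lines. In MKN74 they were WNT4 (-0.80, error 0.47), whose other probe gave 0.58 with an error of 0.58, WNT11 (-0.63, error 0.22) and APCDD1 (-0.73, error 0.22). WNT11 encodes a ligand best known from beta-catenin-independent signalling, and APCDD1 a membrane inhibitor of the pathway. WNT11 read 161.8 in control and 104.8 in knockdown cells of MKN74 and 338 and 381 in MKN45, where its log2 ratio was 0.17. APCDD1 read 389 and 234 in MKN74 and 274 and 256 in MKN45, with -0.10 there. The response differed between the lines by 0.80 (combined error 0.30) for WNT11 and by 0.64 (combined error 0.30) for APCDD1. Both were picked for a low ratio in MKN74, which enters the difference and favours a gap. The pathway genes APC2 and EP300, short of the cutoff in both lines, differed by 0.95 (combined error 0.33) and 0.70 (combined error 0.31). Their log2 ratios were -0.45 and -0.52 in MKN74 and 0.50 and 0.18 in MKN45. Of all probes measured in both channels on both arrays, 1.48% had a response difference past the 95% limit of their combined errors.

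In MKN45 the 3 genes were the ligand WNT5B (-0.76, error 0.28), the Frizzled receptor FZD9 (-0.60, error 0.23) and OLFM4 (-1.04, error 0.32), a secreted glycoprotein and intestinal stem cell marker. WNT5B and OLFM4 were not well above background in MKN74, and FZD9 was at -0.24 there. EPHB2, a receptor of crypt cells, passed the cutoff at 1 of its 3 probes, the dimmest, with -0.84 (error 0.27) in MKN45 and -0.51 in MKN74; its other probes gave -0.22 and -0.44 in MKN45.

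The counts by role stand beside 1.75% of all genes lower and 3.73% higher in MKN74, and 1.89% and 4.63% in MKN45. Every higher gene in them rested on 1 channel alone. By role, ligands and their secretion factors had 2 of 13 genes lower and 0 higher in MKN74, and 1 lower and 2 higher of 14 in MKN45. Secreted and membrane inhibitors had 1 lower and 1 higher of 7 in MKN74, and 0 lower and 2 higher of 9 in MKN45. The other target genes had 0 lower and 1 higher of 23 in MKN74, and 1 lower and 0 higher of 25 in MKN45. Of 21 genes for cytoplasmic signalling measured in MKN74, 0 passed 1.5-fold, and of 21 in MKN45, 1 did (AXIN1). Of the nuclear partners of beta-catenin, 0 of 15 passed in MKN74 and 0 of 17 in MKN45. Of the receptors, 0 of 16 passed in MKN74, and 1 was lower and 1 higher of 16 in MKN45. AXIN1, a scaffold of the destruction complex like AXIN2, read 832 and 808 in MKN74 and 17.4 in control cells of MKN45, where the knockdown signal of 2.02 was not well above background. Set against the dimmest Cy5 signal that counted as well above background in MKN45, this gave a bound of at least 2.13-fold lower with knockdown. The channels had unequal limits there. A Cy5 signal of 10.58 (PTK7) counted as well above background, while a Cy3 signal of 18.58 (an NKD2 probe) did not. With normexp and loess, 0 pathway genes were lower in MKN45.

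Between the control cells, 82 of the pathway genes were measured on both arrays, 25 at least 2-fold higher in MKN45 and 16 at least 2-fold higher in MKN74, with a median log2 difference of 0.15, where 16.6% and 17.8% of all genes were that far apart. Normexp with quantile normalization gave 14 and 12. Receptors had a median difference of 1.07 over 14 genes, 8 of them at least 2-fold higher in MKN45 and 3 in MKN74. LGR4, which binds R-spondins like LGR5, read 1158 in MKN74 and 17120 in MKN45 (16.8-fold), and FZD5 was 7.18-fold and ROR1 5.24-fold higher in MKN45. FZD2 and FZD6 went the other way, with log2 differences of -2.65 and -2.72.

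Of 6 secreted and membrane inhibitors measured on both arrays, 3 (KREMEN1, KREMEN2 and ZNRF3) were at least 2-fold higher in MKN74 and 0 in MKN45, with a median of -1.14; NKD2 had the opposite sign (0.21), as did the secreted inhibitor DKK1 by its bound. KREMEN2, a receptor of DKK proteins, read 6975 in MKN74 and 136 in MKN45, a 45.0-fold difference. ZNRF3, the ubiquitin ligase related to RNF43, was 4.58-fold higher in MKN74. AXIN1 was 42.1-fold higher in MKN74 (-5.40) at its single probe, which spans an exon junction, but normexp with quantile normalization gave -2.85. CSNK1E, a kinase that acts on Dishevelled, was 4.76-fold higher in MKN74.

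The other target genes did not follow one direction, with 7 of 18 at least 2-fold higher in MKN45 and 3 in MKN74. MYC (-2.06) and ID2 (-3.38) were lower in MKN45, as AXIN2, LEF1 and SP5 were. JAG1 (4.73), SALL4 (4.19), SLC12A2 (3.38) and BMP4 (2.72) were higher in MKN45, as ASCL2 was. WLS, which carries Wnt ligands to the cell surface, was also higher in MKN45 (2.33). Under Aquantile and under normexp with quantile normalization, all 16 pathway genes named for a difference of at least 4-fold kept their sign. The latter moved 6 of them by over 1.5-fold, to 1.22 for WLS, 1.40 for ROR1, -4.73 for KREMEN2, -2.85 for AXIN1, 3.05 for JAG1 and 3.18 for SALL4.

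Genes not well above background in Cy3 on 1 of the arrays have only bounds in that channel. At the brightest probe, 3 pathway genes were higher in MKN74 by such a bound and 10 in MKN45, and 3 and 2 of these, singled out here after their values were seen, had a bound of at least 4-fold. The ligand WNT6 was at least 1112-fold, the receptor PTK7 at least 20.8-fold and gastrin (GAST) at least 16.5-fold higher in MKN74. In Cy5, WNT6 and PTK7 were measured on both arrays, with log2 differences of -9.46 and -3.97. These are smaller than the Cy3 bounds, which come from another channel and scaling. CD44, a surface glycoprotein and target gene, was at least 1476-fold and SMOC2 at least 10.4-fold higher in MKN45. None of the 16 genes with a measured difference of at least 4-fold had a knockdown log2 ratio past 1.5-fold at its brightest probe in either line, apart from AXIN1 in MKN45.

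**Figure D5:**
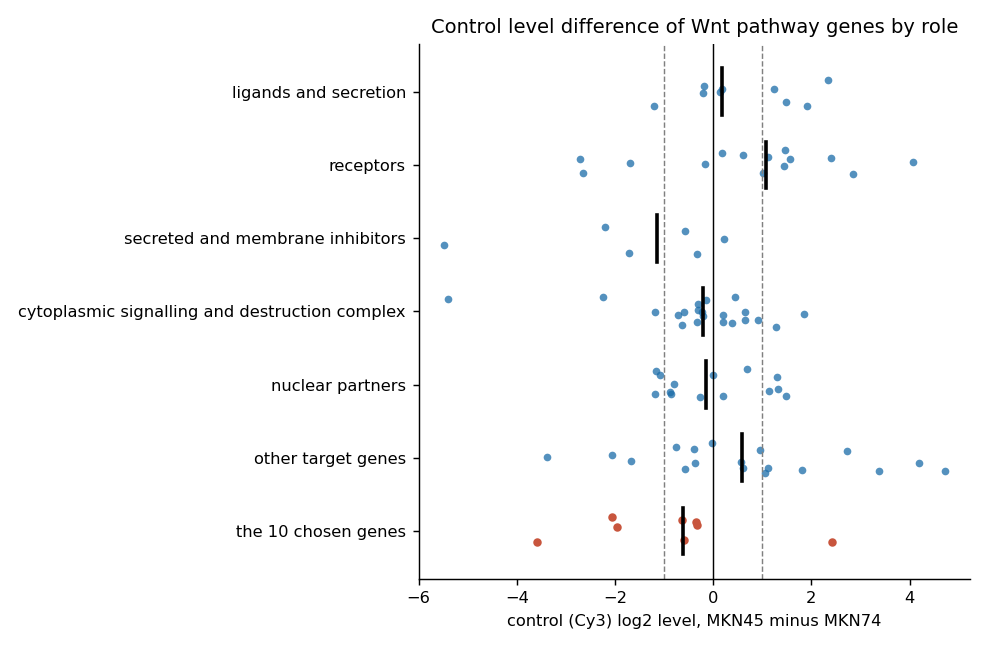
Control (Cy3) log2 level difference, MKN45 minus MKN74 (x axis), of 82 further Wnt pathway genes by role and of the 8 chosen genes measured on both arrays (bottom row, red), 1 point per gene at its brightest probe. Black bars are medians (1.07 for receptors, -1.14 for inhibitors, -0.62 for the chosen genes), dashed lines mark 2-fold, and the vertical scatter within a row has no meaning.

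The genes whose 3 values, both log2 ratios and the control difference, came closest to those of the brighter CTNNB1 probe were PRIM2, SF3B1 and C15orf23, at Euclidean distances of 0.012, 0.027 and 0.030. Within the combined error of 0.29 of that probe lay 1429 of 13591 genes. For the brighter AXIN2 probe the nearest were psiTPTE22 at 0.072, DECR2 at 0.10 and the unnamed probe A_24_P307065 at 0.15, and 84 of 13591 genes lay within its combined error of 0.32. A likeness over 3 values from 2 arrays is a description of these arrays.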

How the data were processed

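Gene expression was measured on 2 arrays of the Agilent design Human GE 4x44K v2, with 1 array for each line. The authors deposited Agilent Feature Extraction 10.7.3.1 output, with a processed intensity per channel after background subtraction and dye normalization and the log10 ratio (Cy5 over Cy3) and its spot error. A log2 table that the authors deposited beside it correlated with the scanner values (r = 0.998). Outlier spots (549 and 534) were left out, 0 gene spots were saturated, and spots of a probe were averaged. Well above background were 54.7% (Cy3) and 60.4% (Cy5) of probes in MKN74 and 59.7% and 66.6% in MKN45. Probes were kept if 50% or more of their spots were well above background in either channel. Counts by gene took the brightest kept probe. Intervals are 1.96 spot errors.

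Control levels were log2 Cy3 intensity minus the 75th percentile of the array. The common response was fitted with limma 3.58.1 in R 4.3.3, at an adjusted p of 0.05. Alternatives were normexp (offset 50) with loess or quantile normalization, median centring, Aquantile, the deposited table, other filters, the mean over probes and a 2-fold cutoff. Named beyond the 10 genes and SETD7 were pathway genes past 1.5-fold in both channels, those at least 4-fold different between control cells, and the 3 genes nearest to CTNNB1 and to AXIN2. APC2 and EP300 were named for their response difference after the values were seen. The genes and the lists were chosen with earlier results of these data known. Only the limma fit was tried on simulated data, in which every probe had the same spread. That setting differs from these arrays. Values were computed with Python 3.11.15.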

Additional observations from a re-analysis of the deposited data

How the results depend on the processing

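Knockdown and control were paired within each array, and the log2 ratio and the limma fit over both arrays rest on that pairing. No paired analysis was possible beyond this because each cell line had 1 array and no replicate numbers. The deposited table, median centring and the inclusion of outlier spots kept the sign of all 24 measured log2 ratios of the Wnt genes and moved none by more than its error; normexp with loess kept the sign of 20 and moved 4 by more than the error. With normexp and loess, 0 Wnt genes were lower in MKN74 in place of 1, and 0 response differences passed 1.96 combined errors in place of 1, as with median centring. Pathway genes numbered 1 lower and 0 higher in MKN74 and 0 and 0 in MKN45 with normexp and loess, 0 higher in either line in the deposited table or with both channels above background, 9 lower and 4 higher in MKN74 and 13 lower in MKN45 without a filter, and 0 lower and 1 higher in MKN74 and 2 lower and 2 higher in MKN45 at 2-fold. Over all probes, lower and higher calls were 43 and 43 in MKN74 and 18 and 27 in MKN45 with normexp and loess, and 2168 and 1560 in MKN74 and 2789 and 1957 in MKN45 without a filter. Higher calls were 119 in MKN74 and 164 in MKN45 in the deposited table, and 119 and 165 with both channels above background. In control cells 14 pathway genes were 2-fold higher in MKN45 with normexp and quantile in place of 25. Limma called 2 probes with both channels above background and 1708 with normexp and loess. The causes were not tested, other than that filters change which probes enter. The 4 log2 ratios that normexp with loess moved were those of NKD1 in both lines and of LEF1 and the downstream AXIN2 probe in MKN45. NKD1, AXIN2 and LGR5 were dim in MKN45, which limits their values there, and LGR5 was not moved by more than its error.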
